A study of Mus musculus with 12 samples.

Results

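The 9 genes P3h2, Cept1, Cryl1, Lyrm2, Gadd45b, Zfp456, Zfp92, Fam214b and Slfn9, of 14143 in the deposited table, were chosen by name from measured values: in earlier results of these data they were low in lymphoid-biased hematopoietic stem cells (Ly-HSCs) of young mice and present in the other groups. The low level in young Ly-HSCs is therefore how the genes were picked and not a finding, and it is described here without a test. The description "near absent in young Ly-HSCs" held for 8 of the 9. Slfn9 stood at 11.02, 21.0 and 24.2 FPKM in the 3 young Ly-HSC libraries, was not near absent in any of them, and overlapped its range in old My-HSCs.

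Hematopoietic stem cells (HSCs), self-renewing cells of the bone marrow from which all blood lineages derive, were sorted from female C57BL6J mice that carried no label of a transgene, deletion or treatment. Lineage-negative, Sca-1+, c-kit+, CD48- and CD135- cells were divided by their CD150 staining: the CD150 low fraction was taken as Ly-HSCs and the CD150 high fraction as myeloid-biased HSCs (My-HSCs). Old mice were 18 months of age, and young mice were 8 to 10 weeks by the sample labels and up to 12 weeks by the protocol. Each of the 4 groups, young Ly-HSC, old Ly-HSC, young My-HSC and old My-HSC, held 3 libraries from 3 independent groups of mice, so the p-values below measure the spread between such groups of mice. The 2 subsets are gates on 1 continuous stain, and each library is the RNA of many sorted cells, in which fewer cells expressing a gene and less RNA per cell cannot be told apart.

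The 9 genes do not form a known pathway. P3h2, Cept1 and Cryl1 encode metabolic or protein-modifying enzymes, Lyrm2 a small mitochondrial protein, Gadd45b a stress-inducible signalling protein, Zfp456 and Zfp92 zinc finger proteins, Slfn9 a Schlafen protein, and Fam214b a protein with a single close paralog, Fam214a. In blood stem cells, Gadd45 proteins are known as stress sensors that feed into kinase signalling and differentiation. KRAB zinc finger proteins, a large vertebrate family, are known for binding DNA and recruiting co-repressors to silence transposable elements. Schlafen genes are known as interferon-responsive genes that regulate growth of lymphoid and myeloid cells.

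Since 8 genes were low in the same 3 libraries, the sequences upstream of their start sites are shown. RefSeq promoter windows (GRCm38.p6) were given for 8 of the 9 genes, and P3h2 had none. Of the 7 near-absent genes with a window, 4 had 1 annotated start each, and for these the stretch that lies upstream of the annotated exons is printed, 5′ to 3′ on the gene's strand, with capitals marking matches to the motifs searched.
Gadd45b, chr10:80929841-80930072, plus strand: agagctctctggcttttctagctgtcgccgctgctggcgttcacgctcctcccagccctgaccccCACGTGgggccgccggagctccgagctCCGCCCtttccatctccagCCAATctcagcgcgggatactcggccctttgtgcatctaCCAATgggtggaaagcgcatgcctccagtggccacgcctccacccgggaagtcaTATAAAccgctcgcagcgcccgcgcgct
Lyrm2, chr4:32800009-32800252, plus strand: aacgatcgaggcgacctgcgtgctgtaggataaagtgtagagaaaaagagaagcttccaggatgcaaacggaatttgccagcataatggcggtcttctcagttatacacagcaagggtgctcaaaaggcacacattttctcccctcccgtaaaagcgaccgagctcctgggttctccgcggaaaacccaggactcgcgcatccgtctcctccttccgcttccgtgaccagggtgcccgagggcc
Cryl1, chr14:57398530-57398733, minus strand: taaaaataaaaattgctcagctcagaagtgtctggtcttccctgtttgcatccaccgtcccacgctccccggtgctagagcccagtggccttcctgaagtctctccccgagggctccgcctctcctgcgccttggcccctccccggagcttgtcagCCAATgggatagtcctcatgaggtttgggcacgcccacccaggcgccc
Zfp456, chr13:67375811-67376013, minus strand: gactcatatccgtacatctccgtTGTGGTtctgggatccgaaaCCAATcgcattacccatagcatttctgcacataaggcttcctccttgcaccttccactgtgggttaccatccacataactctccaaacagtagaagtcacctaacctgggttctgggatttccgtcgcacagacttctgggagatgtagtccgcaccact
Of the 4 upstream stretches, 3 held a CCAAT box and no motif of the 9 searched lay in all 4. Gadd45b held a TATA box, an E-box, a GC box and 2 CCAAT boxes, Cryl1 a single CCAAT box, Zfp456 a CCAAT box and a Runx motif, and Lyrm2 none of the 9.

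The motifs were searched on both strands in the 250 bases before each start, and a gene with several starts counts where any of its windows holds the motif. The GC box (GGGCGG) lay in windows of 5 of the 8 genes (Cept1, Fam214b, Gadd45b, Slfn9 and Zfp92). By window it lay in 7 of the 12 of these genes and in 32.7% of all 32851 windows. The CCAAT box (CCAAT) also lay in 5 of the 8 (Fam214b, Gadd45b, Zfp456, Cryl1 and Zfp92), in 5 of the 12 windows and in 33.8% of all windows. The Runx motif (TGTGGT) lay in windows of Cept1, Fam214b and Zfp456, in 3 of the 12 windows and in 14.05% of all windows. The TATA box (TATAAA, 12.4% of all windows) and the E-box (CACGTG, 6.02%) were found for Gadd45b, the GATA motif (AGATAA, 9.99%) for Slfn9 and the AP-1 motif (TGANTCA, 6.75%) for Fam214b. No window of the 8 genes held the ETS motif (CCGGAAG, 6.91% of all windows) or the cyclic AMP response motif (TGACGTC, 2.78%). The median GC content of the 12 windows of these genes was 60%, against 52.4% over all windows, and the median number of CG dinucleotides was 12 against 6. These are matches of letters and no evidence of binding.

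Levels are in FPKM, which divides the fragments of a gene by its length and by the library's total, so that levels of different genes can be compared. Young Ly-HSC libraries 1, 2 and 3 held 1.01, 8.18 and 1.82 FPKM summed over the 8 genes other than Slfn9. The old Ly-HSC libraries held 105.6, 65.5 and 69.5 FPKM, those of young My-HSCs 91.5, 88.5 and 81.9, and those of old My-HSCs 77.9, 66.3 and 73.5. Of the 9 genes, 8, 7 and 8 were under 2 FPKM in the 3 young Ly-HSC libraries. In the 9 other libraries this was seen 2 times, for P3h2 in old Ly-HSC library 1 and for Cryl1 in young My-HSC library 1.

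**Figure D1:**
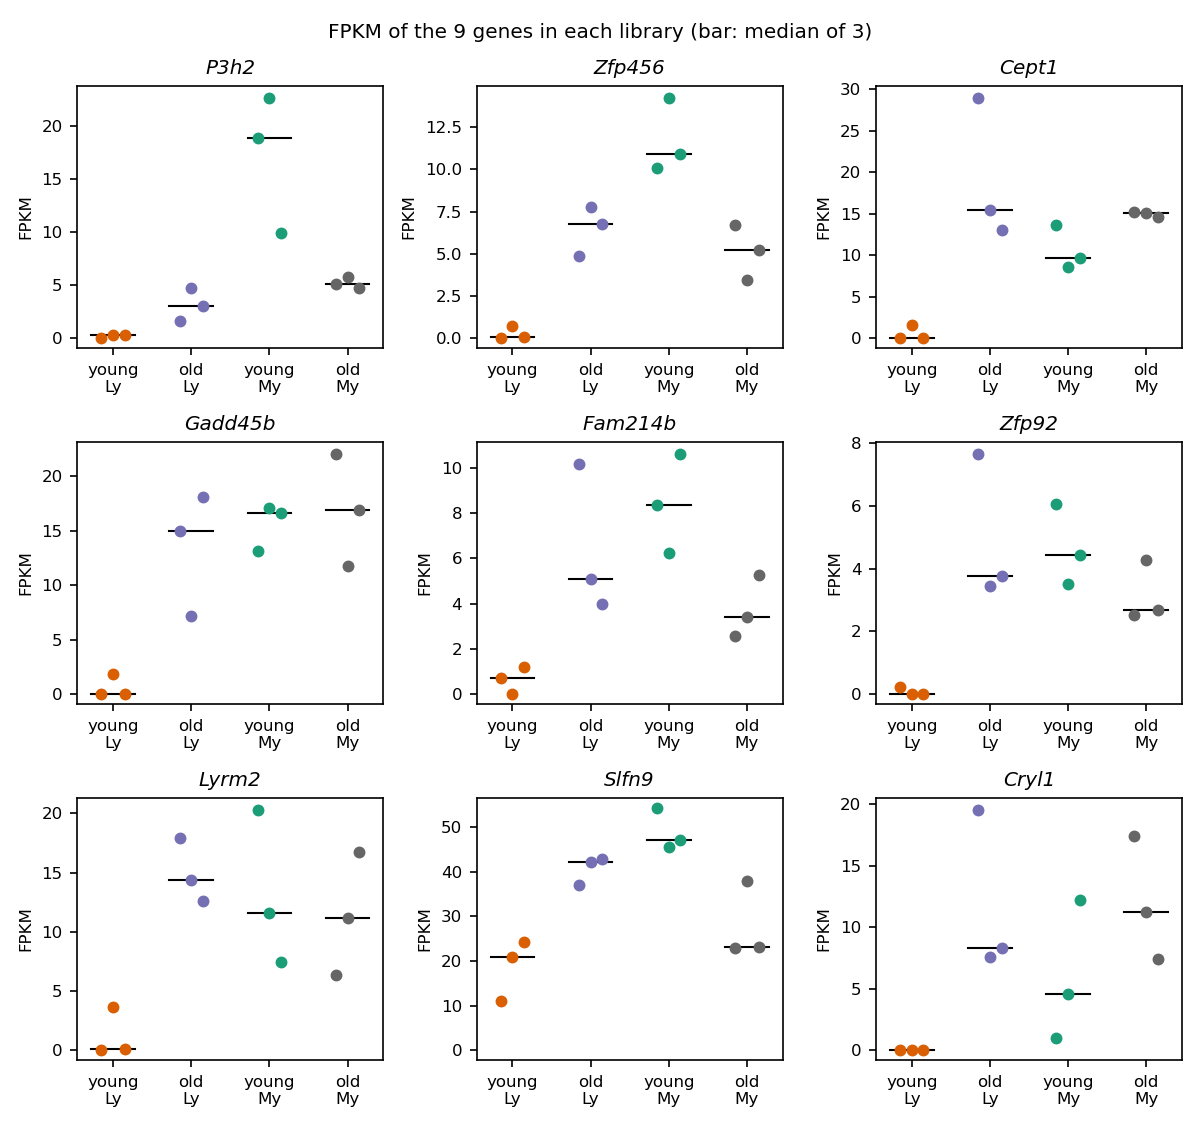
Level in FPKM (vertical axis, linear, its own scale for each gene) of the 9 genes in the 12 libraries, with 1 point per library, coloured by group, and a bar at the median of the 3 libraries of a group. The young Ly-HSC points lie below all 9 other libraries for 8 genes, and for Slfn9 they lie far from 0 and overlap old My-HSCs.

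Differences between groups are on the log2(FPKM + 1) scale, which understates changes of low genes. They come from 1 limma model over all 12 libraries and the 10900 genes that reached 1 FPKM in at least 3 libraries, with Benjamini-Hochberg adjustment over those genes and a call at an adjusted p under 0.05. All 9 genes passed this filter, and all but Slfn9 passed it through the groups in which they were high. Old and young Ly-HSCs, and young My-HSCs and young Ly-HSCs, were the comparisons that picked the genes, so their values are given with no p. The comparisons that leave young Ly-HSCs out were tested: old with young My-HSCs, old My-HSCs with old Ly-HSCs, and old Ly-HSCs with young My-HSCs. The choice still required the genes to be present in those 3 groups. None of the 9 was called in any of these comparisons, in which 0.211%, 0.0275% and 0.0917% of all tested genes were called. Each standard error (SE), interval and adjusted p below is limma's. All rest on 1 estimate of spread per gene over the 4 groups. The young Ly-HSC libraries are therefore left out of the tested differences but not out of their errors and p-values. In fits of only the 2 groups compared, none of the 9 was called either.

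P3h2 (ENSMUSG00000038168.5, chr16:25959288-26105784, minus strand, 17 exon blocks in GENCODE M21 on GRCm38) encodes a prolyl 3-hydroxylase that modifies prolines of collagens, type IV collagen above all. Its level was 0.0599, 0.333 and 0.337 FPKM in young Ly-HSCs and 1.62, 4.70 and 3.01 in old Ly-HSCs. The young My-HSC libraries held 18.9, 22.7 and 9.90 FPKM, and old My-HSC libraries 5.09, 5.79 and 4.70. The 4 groups did not overlap, in the order young Ly-HSC, old Ly-HSC, old My-HSC and young My-HSC, though the old groups were parted only by 4.702 FPKM (old Ly-HSC library 2) against 4.704 FPKM (old My-HSC library 3). P3h2 was the gene of the 9 with the largest differences among the groups other than young Ly-HSCs. Old Ly-HSCs were below young My-HSCs by a log2 difference of -2.14 (SE 0.47, 95% interval -3.16 to -1.11, unadjusted p = 0.000578, adjusted p = 0.170), which did not pass the threshold. Old My-HSCs were below young My-HSCs by -1.48 (SE 0.47, interval -2.51 to -0.46, adjusted p = 0.433). The gap between old My-HSCs and old Ly-HSCs was 0.66 (SE 0.47, adjusted p = 1.00). P3h2 is overlapped by the antisense gene Gm4524. The library kit marks strand, while the strand setting of the counting was not given in the sources used here. Reads of overlapping genes on opposite strands may not have been told apart, for P3h2 and for the other genes with antisense partners named below.

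Cept1 (ENSMUSG00000040774.15, chr3:106502260-106547802, minus strand, 11 exon blocks) encodes the choline and ethanolamine phosphotransferase of the last step of phosphatidylcholine and phosphatidylethanolamine synthesis. Its level was 0, 1.65 and 0.107 FPKM in young Ly-HSCs and 28.95, 15.5 and 13.02 in old Ly-HSCs. Among young My-HSC libraries it was 13.6, 8.64 and 9.73 FPKM, and among old My-HSC libraries 15.2, 15.1 and 14.6. Outside young Ly-HSCs the lowest library still held 8.64 FPKM, and the 3 old My-HSC libraries lay close together. Old My-HSCs lay above young My-HSCs without overlap, by 0.48 (SE 0.47, interval -0.54 to 1.49, adjusted p = 0.943), about the size of its pooled error. That error includes the spread of the Ly-HSC groups. The log2 standard deviation was 0.032 in old and 0.31 in young My-HSCs, against 0.58 in old and 0.77 in young Ly-HSCs. The other neighbours in its order, old My-HSCs and old Ly-HSCs, overlapped and differed by -0.25 (SE 0.47, adjusted p = 1.00). Cept1 overlaps 2 protein-coding genes of the opposite strand, Dennd2d and Dram2. Neither was low in young Ly-HSCs, where Dennd2d stood at 51.2 to 78.3 FPKM and Dram2 at 5.59 to 15.1 FPKM.

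Cryl1 (ENSMUSG00000021947.10, chr14:57274993-57398529, minus strand, 10 exon blocks) encodes lambda-crystallin, an L-gulonate 3-dehydrogenase of the glucuronate pathway. It was the only one of the 9 genes listed at 0 in all 3 young Ly-HSC libraries, so no fold against that group is given. Old Ly-HSC libraries held 19.5, 7.55 and 8.31 FPKM, young My-HSC libraries 0.971, 4.55 and 12.2, and old My-HSC libraries 17.4, 11.2 and 7.43. Library 1 of young My-HSCs lay close to the young Ly-HSC values. Among the 3 groups with signal the ranges overlapped. Old My-HSCs exceeded young My-HSCs by 1.24 (SE 0.65, interval -0.17 to 2.64, adjusted p = 0.771), and by 0.53 without young My-HSC library 1. The old Ly-HSC level exceeded that of young My-HSCs by 1.17 (SE 0.65, adjusted p = 0.837), and by 0.46 when young My-HSC library 1 was left out.

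Lyrm2 (ENSMUSG00000045854.4, chr4:32800253-32801559, plus strand, 2 exon blocks) encodes a small mitochondrial protein of the LYR motif family, whose members act in assembling respiratory complexes and iron-sulfur proteins. Its level was 0, 3.64 and 0.0866 FPKM in young Ly-HSCs and 17.9, 14.3 and 12.6 in old Ly-HSCs. Young My-HSC libraries held 20.3, 11.6 and 7.43 FPKM, and old My-HSC libraries 6.33, 11.2 and 16.7. The 3.64 FPKM of young Ly-HSC library 2 was the highest value of any of the 8 low genes in young Ly-HSCs, and was still below all 9 other libraries. The 3 other groups overlapped, with differences of -0.17 (old less young My-HSCs, SE 0.61, interval -1.49 to 1.14), -0.44 (old My-HSCs less old Ly-HSCs) and 0.27 (old Ly-HSCs less young My-HSCs).

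Gadd45b (ENSMUSG00000015312.8, chr10:80930073-80932204, plus strand, 3 exon blocks) encodes a stress-inducible protein that activates stress kinases and has been linked with DNA repair and demethylation. Its level was 0, 1.83 and 0 FPKM in young Ly-HSCs and 14.95, 7.17 and 18.1 in old Ly-HSCs. The young My-HSC libraries held 13.1, 17.1 and 16.6 FPKM, and old My-HSC libraries 22.04, 11.8 and 16.9. The 3 groups other than young Ly-HSCs overlapped one another, and none of their 9 libraries was under 7.17 FPKM. Old and young My-HSCs differed by 0.074, with either sign depending on the library left out (SE 0.51, interval -1.02 to 1.16, adjusted p = 0.995). This interval does not exclude a change of 1 log2 unit in either direction, but it includes the spread of the Ly-HSC groups. The log2 standard deviation was 0.427 in old and 0.195 in young My-HSCs, against 0.645 in old and 0.868 in young Ly-HSCs. The difference of old Ly-HSCs less young My-HSCs was -0.29, and that of old My-HSCs less old Ly-HSCs 0.36, each smaller than its SE of 0.51.

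Zfp456 (ENSMUSG00000078995.9, chr13:67362113-67375810, minus strand, 6 exon blocks) encodes a KRAB zinc finger protein in a chromosomal cluster of such genes. Its level was 0, 0.712 and 0.0678 FPKM in young Ly-HSCs and 4.87, 7.78 and 6.75 in old Ly-HSCs. Among young My-HSC libraries it was 10.1, 14.2 and 10.9 FPKM, and among old My-HSC libraries 6.73, 3.48 and 5.25. Young My-HSCs were highest and overlapped none of the other groups. Old My-HSCs were below young My-HSCs by -1.07 (SE 0.45, interval -2.04 to -0.11, unadjusted p = 0.0321, adjusted p = 0.600). Old Ly-HSCs were below young My-HSCs by -0.78 (SE 0.45, adjusted p = 0.839), and the 2 old groups overlapped (-0.29, SE 0.45). Zfp456 overlaps Gm28041 on its own strand and Gm17039 on the other, and zinc finger genes of this cluster resemble each other, so the split of reads among them is uncertain. Its neighbour Zfp953, 1508 bases away, stood at 8.27 to 9.43 FPKM in young Ly-HSCs, above its values in all 9 other libraries.

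Zfp92 (ENSMUSG00000031374.13, chrX:73411096-73428385, plus strand, 7 exon blocks) encodes another KRAB zinc finger protein. Its level was 0.232, 0.0117 and 0 FPKM in young Ly-HSCs and 7.64, 3.44 and 3.78 in old Ly-HSCs. Young My-HSC libraries held 6.07, 3.50 and 4.44 FPKM, and old My-HSC libraries 2.53, 4.27 and 2.68. All 9 other libraries lay between 2.53 and 7.64 FPKM, with the 3 groups overlapping. Old and young My-HSCs differed by -0.45 (SE 0.46, interval -1.43 to 0.54, adjusted p = 0.944), old My-HSCs and old Ly-HSCs by -0.47, and old Ly-HSCs and young My-HSCs by 0.027, a value whose sign turned with the scaling of the libraries (-0.11 after quantile normalization, -0.028 as TPM). The antisense gene Gm26726 overlaps Zfp92.

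Fam214b (ENSMUSG00000036002.12, chr4:43032414-43046220, minus strand, 13 exon blocks) stood at 0.717, 0 and 1.23 FPKM in young Ly-HSCs and at 10.2, 5.08 and 3.97 in old Ly-HSCs. The young My-HSC libraries held 8.35, 6.26 and 10.6 FPKM, and old My-HSC libraries 2.60, 3.43 and 5.27. The lowest of its 9 other values, 2.60 FPKM in old My-HSC library 1, compares with a highest young Ly-HSC value of 1.23 FPKM. Young My-HSCs lay above old My-HSCs without overlap, with a difference, old less young, of -0.99 (SE 0.50, interval -2.08 to 0.10, adjusted p = 0.758). Old Ly-HSCs overlapped both groups, with differences of -0.58 (old My-HSCs less old Ly-HSCs) and -0.41 (old Ly-HSCs less young My-HSCs). Fam214b is overlapped on the other strand by Gm26643, a long intergenic RNA, and by Gm26881.

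Slfn9 (ENSMUSG00000069793.12, chr11:82978390-82991830, minus strand, 6 exon blocks) was the most abundant of the 9 genes and differed in level from the rest. Its 11.02, 21.0 and 24.2 FPKM in young Ly-HSCs compare with 37.05, 42.1 and 42.9 in old Ly-HSCs. Among young My-HSC libraries it was 54.3, 45.6 and 47.01 FPKM, and among old My-HSC libraries 22.96, 37.9 and 23.1. Old Ly-HSCs and young My-HSCs each lay above young Ly-HSCs, by 1.14 and 1.40, while old My-HSCs overlapped young Ly-HSCs. Old My-HSCs lay below young My-HSCs without overlap, by -0.82 (SE 0.29, interval -1.45 to -0.19, unadjusted p = 0.0144, adjusted p = 0.505). Old Ly-HSCs lay below young My-HSCs without overlap, by -0.26 (SE 0.29, adjusted p = 0.974), and the 2 old groups overlapped (-0.56, SE 0.29). Schlafen genes are a family of close paralogs in 1 cluster, so the split of reads among them is uncertain.

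In the comparisons that picked the genes, all 9 were higher without overlap in old than in young Ly-HSCs, as were 11.5% of all tested genes, with 0.349% of all tested genes called. Their median difference was 2.59 (Zfp456), against 0.18 over all tested genes. All 9 were also higher without overlap in young My-HSCs than in young Ly-HSCs, as were 8.97% of all tested genes, with 0.119% called. The median difference was 2.94 (Lyrm2), against 0.13 over all. Cryl1, at 0 in all 3 young Ly-HSC libraries, enters these medians on 1 side only, above the first and below the second. Both comparisons share the 3 young Ly-HSC libraries, and nothing is read from their similarity.

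Between old and young My-HSCs, 6 genes were lower and 3 higher, with a median difference of -0.45 against 0.066 over all tested genes. P3h2, Zfp456 and Slfn9 had an unadjusted p under 0.05, as did 7.21% of all genes. P3h2, Zfp456, Fam214b and Slfn9 were lower in old My-HSCs without overlap (7.80% of all tested genes were) and Cept1 was higher without overlap (11.3% were). Between old My-HSCs and old Ly-HSCs, 6 genes were lower and 3 higher, the median was -0.29 against 0.018 over all, and P3h2 alone did not overlap, on the higher side and by the narrow gap given above, as did 9.19% of all genes. None of the 9 had an unadjusted p under 0.05 there, against 4.03% of all genes, and all 9 had an adjusted p of 1.00. Between old Ly-HSCs and young My-HSCs, 5 genes were lower and 4 higher, with a median of -0.26 against 0.041 over all. P3h2 alone had an unadjusted p under 0.05, against 6.57% of all genes. P3h2, Zfp456 and Slfn9 were lower without overlap, as were 7.04% of all genes. These 3 comparisons share groups in pairs, so P3h2, Zfp456 and Slfn9 recur in 2 of them with the same young My-HSC libraries.

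**Figure D2:**
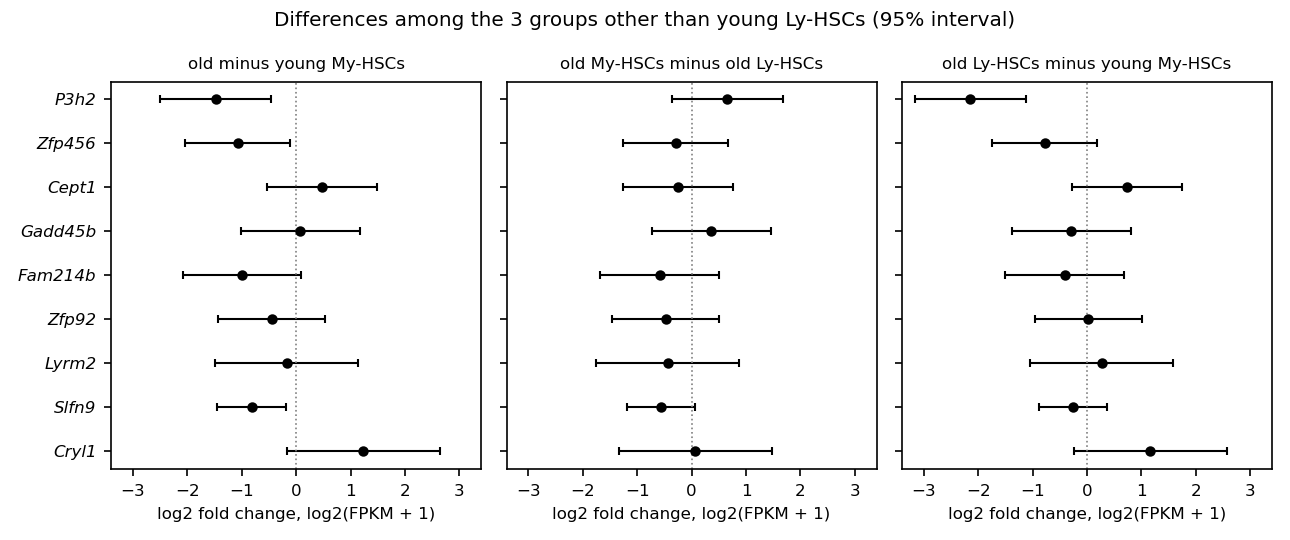
Log2 differences of the 9 genes in the 3 comparisons without young Ly-HSCs, as points with 95% intervals from limma on the log2(FPKM + 1) scale. The intervals rest on the spread within all groups, young Ly-HSCs included. P3h2 lies farthest from 0, at -2.14 for old Ly-HSCs less young My-HSCs, and no gene passed the adjusted threshold.

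Over the 9 libraries outside young Ly-HSCs, the genes did not vary as 1 group. Pearson's r of log2(FPKM + 1) over the 36 pairs of genes ran from -0.767 (P3h2 and Cept1) to 0.755 (P3h2 and Zfp456), with a median of -0.011 and 18 pairs above 0. Fam214b and Zfp92 had an r of 0.711. Over all 12 libraries r was between 0.461 and 0.945 for all 36 pairs, with a median of 0.779, a value that includes the 3 libraries by which the genes were chosen. The points of these correlations share libraries, depth and group, and they are given as a description.

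**Figure D3:**
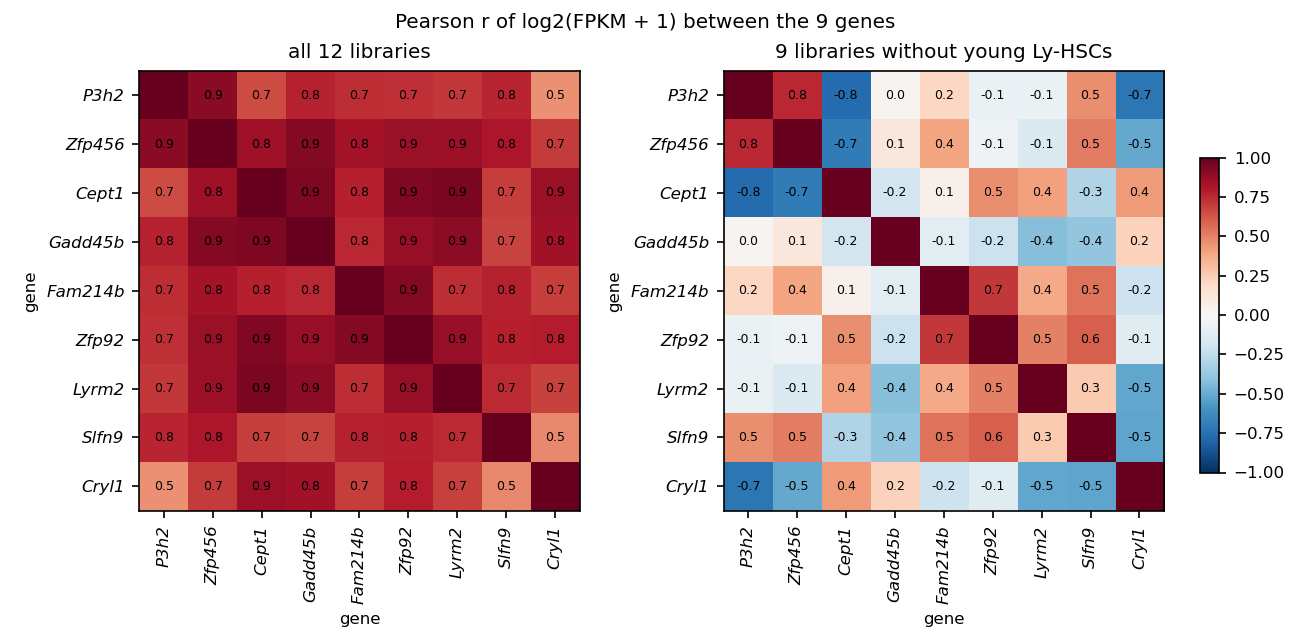
Pearson's r of log2(FPKM + 1) for each pair of the 9 genes as a colour from -1 to 1, over all 12 libraries in the first panel and over the 9 libraries without young Ly-HSCs in the second. All 36 pairs are positive over 12 libraries, and 18 of 36 are over 9.

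The young Ly-HSC libraries were also among those with the lowest estimated depth and the most genes at 0, overlapping the 9 others in both. Depth, estimated from the size of the smallest values and approximate, came to 6.58, 12.9 and 10.3 M fragments (M for mega) for the young Ly-HSC libraries and to 11.4 to 19.8 M for the 9 others. In young Ly-HSCs 34.1%, 25.04% and 28.4% of genes were at 0. For old Ly-HSCs this share ran from 13.3% to 22.3%, for young My-HSCs from 19.3% to 26.1% and for old My-HSCs from 12.1% to 18.2%. A listed 0 need not be an absence: in young Ly-HSC library 1, 44 of 5404 genes that were at 5 FPKM or more in all 11 other libraries were at 0, among them Atp5g2, an ATP synthase subunit used by every cell. Young Ly-HSC libraries 2 and 3 had 2 such genes each, and the 9 other libraries 0 to 4. The part of depth and of missing estimates in the low values of the 8 genes was not tested.

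Of the 27 values of the 9 genes in young Ly-HSCs, 10 were at 0 (37.0%), spread over 7 genes, against 10.4% of the values of all tested genes in those libraries. None of their 81 other values was at 0, against 2.36%. Both contrasts follow from choosing genes that were low in young Ly-HSCs and present elsewhere, and are no separate result. Young Ly-HSC library 1 held 5 of these zeros, library 2 held 2 and library 3 held 3. Within young Ly-HSCs, Zfp456, Cept1, Gadd45b and Lyrm2 were highest in library 2, P3h2, Fam214b and Slfn9 in library 3, and Zfp92 in library 1. Low values in more than 1 library also follow from the choice of the genes, and nothing is read from this order. Young My-HSC library 1 had a share of zeros of 26.1%, above the 25.04% of young Ly-HSC library 2, at depths of 13.6 and 12.9 M fragments. Young Ly-HSC libraries 1 and 3 had more zeros and less depth than both, with 34.1% and 28.4% at 6.58 and 10.3 M fragments. The genes were chosen as present in young My-HSCs, and the part of depth in their low values was not tested.

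Estimated fragments show how much signal the low values hold. Since the genes were chosen for low values in young Ly-HSCs, counts below those at the level of the other libraries follow from the choice, and nothing is read from the gap. In young Ly-HSC library 2, the deepest of the 3, Gadd45b had about 37.7 fragments, and about 342 would stand at the median level of its 9 other libraries. For Cept1 the estimates were 66.4 and 587 fragments, for Lyrm2 53.7 and 186, and for P3h2 16.0 and 245. In young Ly-HSC library 1, the shallowest, Zfp456, Cept1, Gadd45b and Lyrm2 had 0 fragments where about 206, 298, 174 and 94.6 would stand at that median. Cryl1 had 0 in each library, where about 119, 234 and 187 would stand, and a level of 3 fragments, the limit that a count of 0 allows, corresponds to 0.209, 0.106 and 0.133 FPKM. These estimates cover counting error only and rest on exon lengths of GENCODE M21. For Gadd45b, Zfp456 and Cryl1 the version of the gene model differs from the table's, so their estimates are the least certain. The median exonic length of the 9 genes was 3721 bases, against 4532 bases over the tested genes with a model of the same version.

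**Figure D4:**
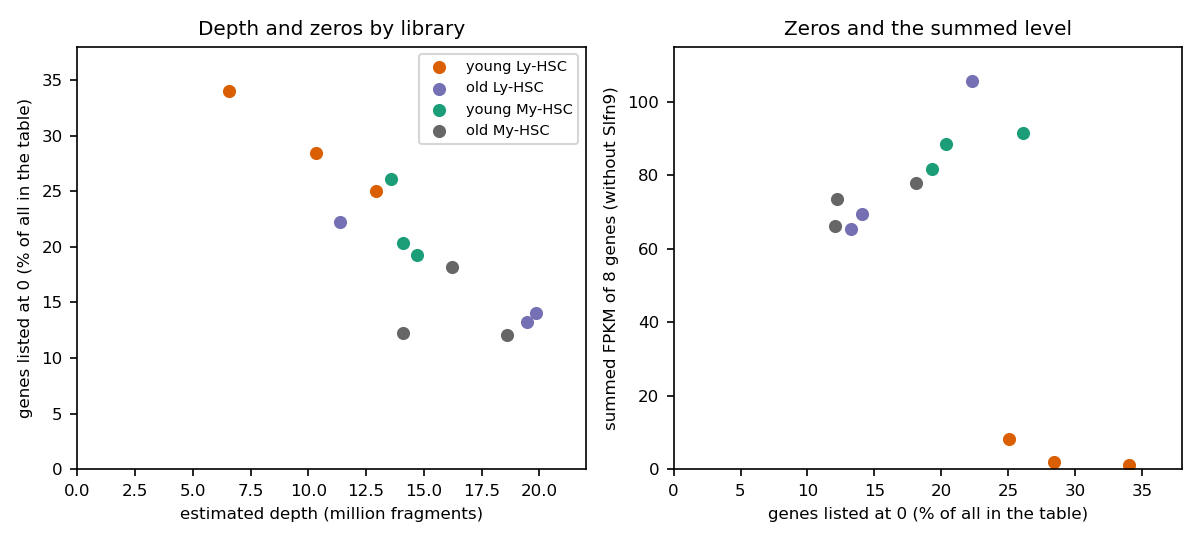
Each point is 1 of the 12 libraries, coloured by group. The first panel plots the percent of genes listed at 0 against the estimated depth, and the second plots the summed FPKM of the 8 genes other than Slfn9 against that percent. The young Ly-HSC libraries lie at 25.04% to 34.1% of genes at 0 and young My-HSC library 1 at 26.1%. The summed levels are the values by which the genes were chosen.

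Markers of the sorted cells were present: 10 of 12 HSC markers had a value, with sums of 410 to 547 FPKM among young Ly-HSC libraries, 380 to 435 among old Ly-HSC, 549 to 567 among young My-HSC and 531 to 590 among old My-HSC libraries. Slamf1, which encodes the CD150 used to divide the subsets, stood at 1.39 to 8.33 FPKM in the 6 Ly-HSC libraries and at 15.01 to 35.3 FPKM in the 6 My-HSC libraries. Markers of other cells are given by their lowest and highest sum for the same groups in the same order. Granulocyte markers (Prtn3 and Mmp9, 2 of 9) ran from 1.42 to 35.6, from 54.6 to 137, from 7.53 to 39.1 and from 84.04 to 176 FPKM. Monocyte and macrophage markers (6 of 7, led by Itgam) ran from 0.416 to 33.0, with Ly6c2, Cd14 and Cx3cr1 at 0, from 20.5 to 202, from 0.0229 to 10.02, with Cd14 and Cx3cr1 at 0, and from 21.1 to 149. On both lists young My-HSC and young Ly-HSC libraries overlapped. Erythroid markers (4 of 8) ran from 0.162 to 4.78, with Alas2 at 0, from 2.06 to 50.3, from 0.0757 to 14.8, and from 2.93 to 41.4. B lineage markers (7 of 8, led by Cd79b) ran from 0.114 to 18.2, with Cd79a, Ebf1, Igll1 and Ms4a1 at 0, from 6.17 to 23.7, from 2.93 to 26.1, with Igll1 at 0, and from 7.55 to 23.7. T and NK cell markers (7 of 7) ran from 0 to 2.10, with Cd3e, Cd3d, Cd3g, Cd8a and Ncr1 at 0, from 2.23 to 12.0, with Cd3g at 0, from 0.0657 to 9.84, with Cd3e, Cd3d, Cd3g and Cd8a at 0, and from 7.98 to 20.7, with Ncr1 at 0. Megakaryocyte markers (2 of 5, led by Itga2b) ran from 34.0 to 49.3, with Gp1bb at 0, from 33.1 to 59.5, from 27.2 to 40.5 and from 18.5 to 31.8. The part of such cells in the values of the 9 genes was not tested.

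Of the paralogs of the 9 genes named below, Slfn2 alone had its 3 young Ly-HSC libraries below all 9 others. Gadd45a, another stress-inducible member of the Gadd45 family, stood at 1.73, 15.1 and 43.8 FPKM in young Ly-HSCs, and at 41.3, 11.9 and 21.4 in old Ly-HSCs. Gadd45g stood at 0.129, 0.326 and 28.3 in young Ly-HSCs and at 44.5, 12.7 and 7.27 in old Ly-HSCs. Both thus ranged widely within young Ly-HSCs, with library 3 within or above the old Ly-HSC range, while Gadd45b was at 0 in that library. Their old less young differences in Ly-HSCs were 0.88 for Gadd45a (adjusted p = 0.747) and 2.29 for Gadd45g (adjusted p = 0.385).

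Chpt1, the cholinephosphotransferase that shares the last step of phosphatidylcholine synthesis with Cept1, stood at 6.16, 5.17 and 0.562 FPKM in young Ly-HSCs and at 2.00, 2.90 and 4.12 in old Ly-HSCs. Selenoi, the ethanolamine phosphotransferase, stood at 3.74, 1.98 and 5.58 and at 5.95, 4.23 and 2.31. Neither differed beyond its error between old and young Ly-HSCs (-0.067, adjusted p = 0.973, and 0.13, adjusted p = 0.937). P3h3, a prolyl hydroxylase relative of P3h2, stood at 40.6, 22.4 and 20.2 FPKM in young Ly-HSCs (old less young -0.084, adjusted p = 0.919). P3h1, a further relative, was low in all groups, with 0.0988, 4.04 and 1.60 in young Ly-HSCs (0.51, adjusted p = 0.749). Fam214a stood at 14.2, 18.4 and 13.8 (0.19, adjusted p = 0.830).

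Within the Schlafen family, Slfn8 stood at 45.4, 55.5 and 65.8 FPKM in young Ly-HSCs, with an old less young difference of -0.18 (adjusted p = 0.732). Slfn2, which is known to keep T cells and monocytes quiescent, stood at 15.3, 3.14 and 4.25 in young Ly-HSCs, at 56.95, 17.2 and 15.9 in old Ly-HSCs and at 53.4, 25.2 and 30.6 in young My-HSCs. Young My-HSCs exceeded young Ly-HSCs in Slfn2 by 2.33 (adjusted p = 0.0929), the lowest adjusted p of the Schlafen list in any comparison, and did not pass. Slfn5 (0.31, adjusted p = 0.795), Slfn3 (0.74, adjusted p = 0.682) and Slfn1 (1.34, adjusted p = 0.702) did not pass between old and young Ly-HSCs either. Among LYR motif genes, Lyrm9 stood at 15.4, 10.1 and 17.3 FPKM in young Ly-HSCs and Lyrm5 at 5.96, 5.50 and 6.44, with old less young differences of -0.0038 (adjusted p = 0.998) and 1.00 (adjusted p = 0.402). Lyrm4, a partner in iron-sulfur cluster synthesis, was at 39.5, 1.52 and 21.6 in young Ly-HSCs (-0.50, adjusted p = 0.842), Lyrm1 at 0, 4.77 and 3.89 (-0.58, adjusted p = 0.752) and Lyrm7 at 1.17, 5.66 and 1.22 (-1.06, adjusted p = 0.577).

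Lists of the pathways and families of the 9 genes, without the 9, held 367 tested genes, and limma called none of them in any comparison. At an unadjusted p under 0.05 there were 47 between old and young Ly-HSCs, 52 between young My-HSCs and young Ly-HSCs, 14 between old and young My-HSCs, 4 between old My-HSCs and old Ly-HSCs and 12 between old Ly-HSCs and young My-HSCs. The shares over all tested genes in the first 2 were 13.3% and 13.8%. Between old and young Ly-HSCs, 10 of 12 collagen-modifying genes were higher (median 0.60), 10 of 13 Gadd45 relatives and partners (0.70), 5 of 6 Schlafen genes (1.04) and 5 of 6 genes of the glucuronate pathway (0.38). Of the type IV collagen genes, 2 of 3 were higher (0.15), and Col4a2 had a difference of -1.30 (adjusted p = 0.191), from 70.2, 59.4 and 27.8 FPKM in young to 11.95, 19.9 and 29.6 FPKM in old Ly-HSCs. Between old and young My-HSCs, Col4a1 had a difference of -1.11 (adjusted p = 0.456) and Col4a2 of -1.21 (adjusted p = 0.453), the same side as P3h2, and both had an unadjusted p under 0.05. None of these passed the threshold. For the Kennedy pathway of phospholipid synthesis the count in old against young Ly-HSCs was 4 of 9 (-0.067), for LYR motif proteins and partners 4 of 9 (-0.0038), and for co-repressors of KRAB zinc finger proteins 4 of 6 (0.17). The median over all tested genes was 0.18 and 62.4% of them were higher. Of 302 other Zfp genes, 9 (2.98%) had all 3 young Ly-HSC libraries below the 9 others, near the 3.59% of all tested genes.

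Genes beside the 9 on the chromosome ranged from near 0 to abundant in young Ly-HSCs. Of the 18 nearest tested genes, 1 on each side, only Lpp, 966710 bases from P3h2, had all 3 young Ly-HSC libraries below the 9 others. Its values there were 2.44, 4.97 and 7.00 FPKM from lowest to highest, against 7.75 or more. Of all tested genes 3.59% had this pattern, so nothing is read from the 1 of 18. Ankrd6, 2476 bases from Lyrm2, stood at 0, 0.105 and 15.1 FPKM in young Ly-HSCs, and Gng7 beside Gadd45b at 0, 0.366 and 1.08. Both overlapped the other groups. Casp8ap2 beside Lyrm2 stood at 31.4 to 55.6 FPKM in young Ly-HSCs, Haus7 beside Zfp92 at 31.5 to 53.3, Zmym2 beside Cryl1 at 25.7 to 39.7 and Lmnb2 beside Gadd45b at 6.74 to 17.4.

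Among the genes whose profile over the 12 libraries was most like the mean of the 9 were Exoc4 (Pearson's r = 0.947), Slc2a9 (0.930), Fadd (0.927), Aacs (0.926), Klhl11 (0.925), Erlin1 (0.923), 1700112E06Rik (0.920), Ccnj (0.920) and Ppp4r2 (0.919). By gene, among the closest were Pdcd11 (0.975), Atp5g3 (0.966) and Car7 (0.946) for P3h2, Rfwd2 (0.964), Ppp4r2 (0.957) and Rad51ap1 (0.953) for Cept1, and Cyyr1 (0.955), Cdc14b (0.953) and Ly75 (0.950) for Cryl1. For Lyrm2 they were Fam35a (0.982), Ndfip2 (0.968) and Wdr92 (0.957), and for Gadd45b Ppp4r2 (0.968) and Tatdn1 (0.952). For Zfp456 they were 1700112E06Rik (0.923), Exoc4 (0.920) and Tatdn1 (0.918), for Zfp92 Il7 (0.931), Rbbp7 (0.918) and Bpifb5 (0.917), for Fam214b Exoc4 (0.926), Fadd (0.913) and Zfr2 (0.898), and for Slfn9 Hdgfrp2 (0.913), Rad50 (0.910) and Isg20l2 (0.898). Likeness of profile does not mean likeness of level: Pdcd11, closest to P3h2, ran from 27.0 to 29.8 FPKM in young Ly-HSCs and from 42.5 to 46.9 in young My-HSCs.

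The pattern of the 8 genes was shared by many others. Of all tested genes, 391 (3.59%) had their 3 young Ly-HSC libraries below the 9 others, and 8 of these are the 8 genes. The same count came to 26 for old Ly-HSCs, 67 for young My-HSCs and 92 for old My-HSCs. Above the 9 others lay 169 genes for young Ly-HSCs, 55 for old Ly-HSCs, 111 for young My-HSCs and 220 for old My-HSCs, so that young Ly-HSCs was the one group with more genes below than above. Of the 391, 55 were at 0 in all 3 young Ly-HSC libraries and 175 in at least 1.

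With a stricter pattern, a mean log2(FPKM + 1) under 1.5 in 1 group and of at least 3 in each of the 3 others without overlap, 18 genes of the table were near absent in young Ly-HSCs and 0 in each of the other groups. Cept1, Lyrm2 and Gadd45b were among the 18. The 15 others were Ehd3, Prpf4, Fam35a, Nudt19, Ccnj, Klhl11, 1810055G02Rik, Flywch2, Tatdn1, Wdr92, Rab4a, 9130008F23Rik, 4930486L24Rik, Bpifb5 and Slc17a8. P3h2, Zfp456, Fam214b, Zfp92 and Cryl1 missed it because another group had a mean under 3, and Slfn9 because its young Ly-HSC level was high. The count depended on single libraries: it was 82 without young Ly-HSC library 2, 61 without young Ly-HSC library 3 and 27 without young My-HSC library 1, where Cryl1 joined.

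**Figure D5:**
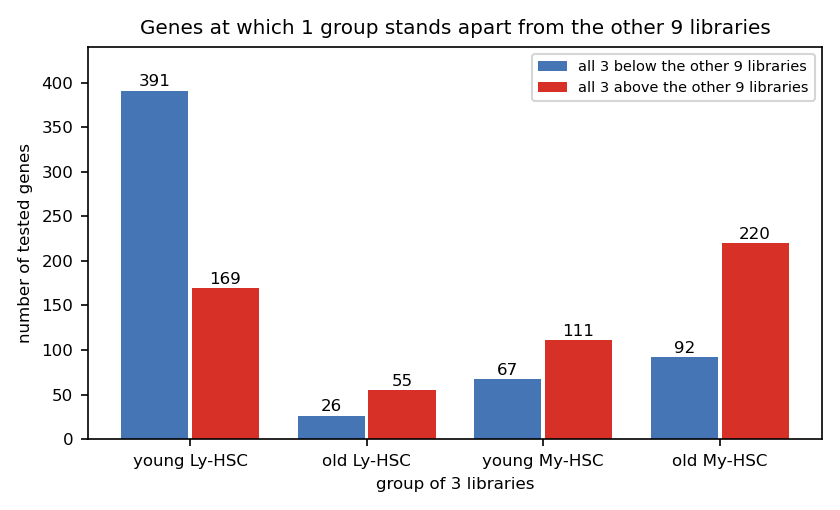
Number of tested genes whose 3 libraries of a group all lie below, or all lie above, the 9 other libraries, for each of the 4 groups. Young Ly-HSCs have 391 genes below and 169 above, and old My-HSCs 92 below and 220 above.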

How the data were processed

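RNA of 12 libraries, 3 in each of 4 groups, was read as paired ends from KAPA stranded mRNA libraries, per the labels' protocols. The authors deposited 1 table of FPKM for 14143 genes. Named in the submitters' processing notes, without roles, are STAR, DESeq2, bcl2fastq 2.17 and GRCm38 (mm10). Annotation, counter and strand setting were not given in the sources used here. FPKM summed to 211455 to 228391 per library. Depth was estimated from low values times GENCODE M21 exon lengths. Between 36.6% and 52.1% of values under 5 fragments lay within 0.05 of a whole number, so counts were not recovered and no count test was run.

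Values were analysed as log2(FPKM + 1) with limma 3.58.1 in R 4.3.3: 1 group-means fit over 12 libraries, an intensity trend, 8 residual and 5.11 prior degrees of freedom, two-sided tests. The step was tested on simulated data. Members and lists were chosen with earlier results of these data known. Named besides the 9 genes were the closest paralogs, the 3 most similar genes to each and the 10 most similar to their mean, and the most abundant markers; neighbours and genes of the near-absent pattern were named after their values were seen. Some genes that this rule names are not reported here. Same-numbered old Ly-HSC and old My-HSC libraries deviated together (r = 0.256, 0.233 and 0.210), so the numbers pair those groups; the labels do not say why. In the other pairs of groups r was -0.039 to 0.048, which does not show that they were unpaired. Alternatives were another pseudocount, no filter, 3 scalings, a replicate block, the share of zeros as covariate, group weights, 2-group fits and each library left out.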

Additional observations from a re-analysis of the deposited data

Results flagged for a closer look

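Of the 9 genes, 4 had opposite age differences in the 2 subsets without overlap between old and young libraries in either. Of all 10900 tested genes, 53 (0.486%) were likewise lower in old than young My-HSCs and higher in old than young Ly-HSCs. The Ly-HSC side is how the 9 genes were picked. Of the 1251 tested genes higher without overlap in old Ly-HSCs, these 53 are 4.24%. The 9 genes were also picked as higher in young My-HSCs than in young Ly-HSCs, which favours high young My-HSC values. Neither background allows for that choice, so nothing is read from the 4 of 9, and no test was made of it. On the log2(FPKM + 1) scale, old less young was -1.48 in My-HSCs and 1.66 in Ly-HSCs for P3h2, -1.07 and 2.59 for Zfp456, -0.99 and 2.15 for Fam214b, and -0.82 and 1.14 for Slfn9. The difference between the subsets was not tested, because the higher values in old than in young Ly-HSCs are what picked the genes. None of the 4 passed the adjusted threshold in My-HSCs.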

How the results depend on the processing

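None of the 9 genes was called by limma in the 3 tested comparisons under any alternative, with adjusted p from 0.0746 (P3h2, old Ly-HSCs less young My-HSCs) to 1.00. At an unadjusted p under 0.05 there were 3, 0 and 1 of them. Of their 270 log2 differences under alternatives other than left-out libraries, 267 kept their sign. The 3 that turned were Gadd45b between old and young My-HSCs with the share of zeros as covariate (-0.069) and Zfp92, old Ly-HSCs less young My-HSCs, after quantile normalization (-0.11) and as TPM (-0.028).

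Of 351 log2 differences with a library left out, or library 1 of all groups, 18 turned. Between old and young My-HSCs, Gadd45b ran from -0.24 to 0.30 and Lyrm2 from -0.49 to 0.51. For old My-HSCs less old Ly-HSCs, Cept1 ran from -0.48 to 0.072, Gadd45b from -0.0044 to 0.61, Lyrm2 from -0.74 to 0.025 and Cryl1 from -0.22 to 0.47. For old Ly-HSCs less young My-HSCs, Gadd45b ran from -0.53 to 0.079, Zfp92 from -0.28 to 0.20 and Lyrm2 from -0.052 to 0.62.

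The number of all genes called was far less stable than these values. Between old and young My-HSCs it was 23, and 1 with a pseudocount of 0.1, 1 as TPM, 1 with the share of zeros as covariate, 56 without a filter, 71 with 1 weight per group and 36 with only the 2 groups. For old My-HSCs less old Ly-HSCs it was 3, and 1 with a pseudocount of 0.1, 1 with the covariate, 29 without a filter, 8 after quantile normalization, 69 with weights and 12 with 2 groups. For old Ly-HSCs less young My-HSCs it was 10, and 5 with a pseudocount of 0.1, 4 as TPM, 37 with weights and 5 with 2 groups. For old less young Ly-HSCs it was 38, and 14 after quantile normalization, 24 after median-of-ratios scaling, 0 with the covariate (1282 at an unadjusted p under 0.05), 9 with weights and 0 with 2 groups. For young My-HSCs less young Ly-HSCs it was 13, and 22 with a pseudocount of 0.1, 2 without a filter, 1 with the covariate, 0 with weights and 0 with 2 groups. The cause of these shifts was not tested.

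With the replicate number as a block the counts were 9, 1, 6, 15 and 4 in the same order, and with the block and only the 2 groups 15, 3, 0, 0 and 0. The block, added to 2-group fits after seeing the data, called none of the 9 genes. Same-numbered libraries deviated together only in the 2 old groups, and whether the other groups were paired cannot be told from the values. Leaving out libraries gave 0 to 36, 0 to 6, 0 to 15, 7 to 223 and 0 to 299 calls, the highest of the last 2 without young Ly-HSC library 2.

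Of the pathway genes, 1 was called between old and young My-HSCs after median-of-ratios scaling, with weights and with 2 groups, 1 between the old groups with weights, 1 between old and young Ly-HSCs without a filter and 1 between the young groups with the covariate. With libraries left out there were 0 to 1, 0, 0, 0 to 5 and 0 to 7. Genes near absent in young Ly-HSCs numbered 18, 402 with no condition on level, 7 after quantile normalization and 17 to 82 with a library left out. For old Ly-HSCs, young My-HSCs and old My-HSCs, at 0, they numbered 26, 67 and 92 with no condition on level, 0, 1 and 1 after quantile normalization, and 0 to 1, 0 to 2 and 0 with a library left out. Young Ly-HSC library 1 had the lowest estimated depth, 6.58 M fragments, and the part of depth in the low values was not tested.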
